A study of Mus musculus with 12 samples.

Results

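The effect of ultraviolet B light (UVB) on skin RNA was compared between 2 Foxp3 genotypes by the interaction of genotype and treatment. All 12 libraries of the series entered, 3 in each of 4 groups: irradiated Foxp3-E2 skin, untreated Foxp3-E2 skin, irradiated Foxp3-WT skin and untreated Foxp3-WT skin. The interaction is the irradiated minus untreated difference in Foxp3-E2 minus that in Foxp3-WT, on the log2 scale, so a positive value means a higher UVB change in Foxp3-E2. The same number is the genotype difference at the irradiated site minus that at the untreated site. The altered genotype is written Foxp3-E2 in the sample labels, Foxp3-DE2 in the protocol and Foxp3dExon2 in the series title, and was taken as 1 genotype. The irradiated site was a shaved patch of the flank that had received 6 doses of UVB, at 200 mJ/cm2 in the sample labels and at 100 mJ/cm2 in the protocol. Per the protocol RNA came from this site and from a control site without UVB, and the labels do not say which libraries share a mouse. The sources used here do not give strain, age, sex, the time after the last dose or whether the untreated site was shaved. Coordinates are those of GRCm38. Libraries are therefore replicates of a group only, and p-values measure the spread between them.

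Foxp3 is the transcription factor of regulatory T cells, which restrain immune responses in skin as in other tissues. UVB damages DNA in the epidermis and is known to induce cytokines, stress keratins and thickening of the epidermis. Hair follicles pass through growth, regression and rest, and keratins of the shaft and inner root sheath, pigment enzymes of follicle melanocytes and division of matrix cells belong to growth. Dendritic epidermal T cells, resident mast cells, fibroblasts, fat and a thin muscle layer are other parts of a whole skin sample.

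Total counts were 2809142 to 4741726 per library. Keratinocyte, fibroblast and endothelial markers were counted in every library. The untreated Foxp3-E2 libraries stood apart, at 102 to 135 on principal component 1 (39.7% of the variance), where the other 9 lay at -73.7 to -11.0. Genes of the hair shaft, inner root sheath and follicle matrix took 2.15%, 1.31% and 2.24% of counts in irradiated Foxp3-E2 and 0.164%, 0.0579% and 0.0596% in untreated Foxp3-E2 libraries. In Foxp3-WT they took 4.43%, 3.35% and 4.91% in irradiated and 2.14%, 3.69% and 3.18% in untreated libraries. Skeletal muscle genes took 4.06%, 3.68% and 4.57% in irradiated Foxp3-E2 and 9.11%, 14.6% and 15.8% in untreated Foxp3-E2 libraries. In Foxp3-WT the muscle share was 4.23%, 8.44% and 2.12% in irradiated and 5.17%, 4.47% and 5.52% in untreated libraries. The untreated Foxp3-E2 libraries thus had less hair and more muscle RNA than every library of the other groups. Foxp3 (ENSMUSG00000039521, chromosome X, 7573644 to 7595245) had 1, 7 and 0 counts in irradiated Foxp3-E2 libraries and 0 counts in the other 9, which allows up to 0.267 CPM in untreated Foxp3-E2, 0.273 CPM in irradiated Foxp3-WT and 0.219 CPM in untreated Foxp3-WT skin (3 counts over the group, counting error only). It was too low to test, and counts per gene do not show which exons were present.

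**Figure D1:**
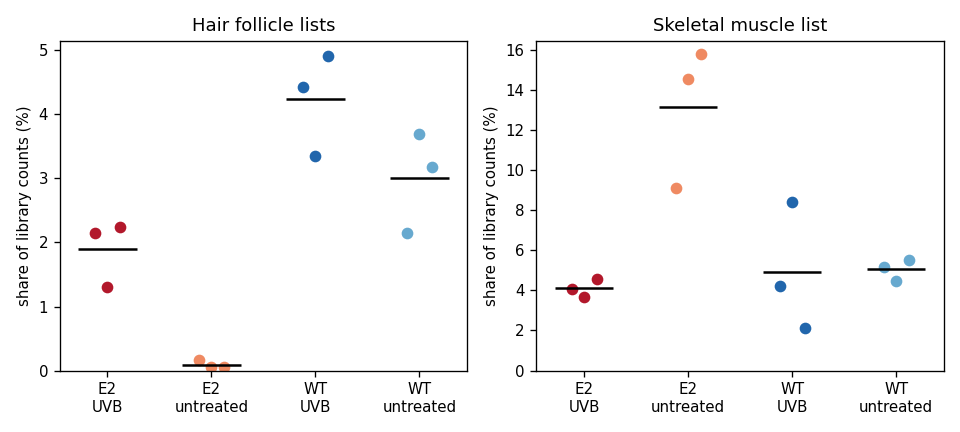
Share of library counts (%) taken by the hair follicle lists (left) and by the skeletal muscle list (right), 1 point per library and a line at the group mean. The 3 untreated Foxp3-E2 libraries are the lowest for hair, at 0.0579% to 0.164%, and the highest for muscle, at 9.11% to 15.8%.

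Of 15126 genes tested, 1585 (10.5%) had an interaction past an adjusted p of 0.05 (quasi-likelihood test of edgeR, adjusted by Benjamini and Hochberg over all of them). The interaction was higher in 853 (5.64%) and lower in 732 (4.84%), and 4018 genes had an unadjusted p under 0.05. The count ran from 878 without untreated Foxp3-WT replicate 2 to 2585 without untreated Foxp3-E2 replicate 1. Between the irradiated and untreated sites, 4202 genes (27.8%) passed in Foxp3-E2 skin and 3 genes (0.0198%) in Foxp3-WT skin. This difference is called the UVB change here, though UVB cannot be told apart from any other difference between the sites. The UVB change was larger in size in Foxp3-E2 for 1563 of the 1585 genes (98.6%), against 75.7% of all genes tested. It had opposite signs in the 2 genotypes in 935 (59.0%, against 46.7% of all genes).

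Most of these genes were set apart by untreated Foxp3-E2 skin. In 1338 of the 1585 (84.4%, against 64.4% of all genes) the genotypes differed more at the untreated than at the irradiated site. Among the 853 higher genes, all 3 untreated Foxp3-E2 libraries lay below the other 9 libraries in 684 (80.2%, against 10.8% of all genes), and the 3 irradiated Foxp3-E2 libraries lay above the other 9 in 216 (25.3%, against 5.55%). Among the 732 lower genes, untreated Foxp3-E2 lay above the other 9 in 501 (68.4%, against 9.96%) and irradiated Foxp3-E2 below the other 9 in 102 (13.9%, against 1.72%).

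The higher genes therefore fall into a larger class and a smaller one. In 697 the larger genotype difference was at the untreated site, with a median log2 difference, Foxp3-E2 minus Foxp3-WT, of -0.20 in irradiated and -3.02 in untreated skin. In the other 156 it was at the irradiated site, with medians of 1.62 in irradiated and -0.42 in untreated skin. The lower genes held 641 of the first kind, with medians of -0.29 in irradiated and 1.52 in untreated skin, and 91 of the second, with -1.36 in irradiated and 0.70 in untreated skin. In all 4 classes the median UVB change in Foxp3-WT was between 0.05 and 0.20.

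The count of genes past the threshold fell with the hair or muscle share of each library as a covariate. With the muscle share of each library as a covariate 335 genes passed, 300 higher and 35 lower, and 68.9% of the variance of that covariate lay between the groups. With the hair share as a covariate 0 passed in edgeR, and 922 had an unadjusted p under 0.05; 96.3% of the variance of that covariate lay between the 4 groups, so it cannot be told apart from them, nor can the muscle share in full. The split also moved with the scaling: with total counts and no composition factor, 1220 were higher and 368 lower (76.8% higher, against 53.8% here), and the median over all genes was 0.38, against 0.04 here. In bulk skin, fewer cells of a type and less RNA per cell cannot be told apart.

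**Figure D2:**
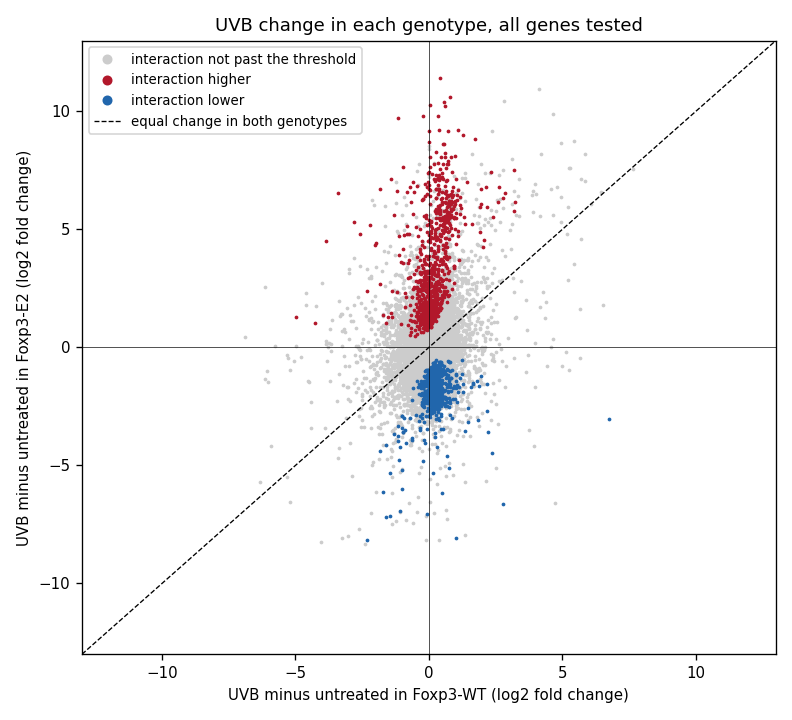
UVB minus untreated log2 fold change in Foxp3-WT (horizontal) and in Foxp3-E2 (vertical), 1 point per gene for 15126 genes, with the line of equal change. The 853 higher (red) and 732 lower (blue) genes spread along the Foxp3-E2 axis. In Foxp3-WT the difference between the sites passed the test in 3 genes.

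Pigment genes gave some of the largest interactions. Of 16 tested melanocyte genes, 11 (68.8%, against 5.64% of all genes) rose and 0 fell in the interaction (median log2 interaction 4.69, or 4.46 with members at 0 placed at a floor of 3 counts per group, against 0.04 over all genes). The count was 11 or 12 with any 1 library left out, 9 with the muscle share as a covariate and 9 with voom. Summed melanocyte markers were at 495 to 598 CPM in irradiated and 10.3 to 16.3 CPM in untreated Foxp3-E2 skin, against 633 to 1539 CPM in irradiated and 854 to 1007 CPM in untreated Foxp3-WT skin. Tyr (ENSMUSG00000004651, chromosome 7, 87424771 to 87493512, minus strand), encoding tyrosinase, the rate-limiting enzyme of melanin synthesis, was at 38.4, 22.7 and 26.2 CPM in irradiated and 0, 0 and 0 CPM in untreated Foxp3-E2 skin, against 81.4, 43.8 and 104 CPM in irradiated and 51.8, 61.7 and 65.03 CPM in untreated Foxp3-WT skin. No read of Tyr was counted in untreated Foxp3-E2 skin, and irradiated Foxp3-E2 skin lay below all 6 Foxp3-WT libraries. It was at least 109-fold higher in irradiated than in untreated Foxp3-E2 skin, from a floor of 3 counts over the group, and its log2 interaction was at least 6.45 (adjusted p = 7.07e-05).

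Other enzymes and structural proteins of the pigment granule followed. Dct (ENSMUSG00000022129, chromosome 14, 118012790 to 118052244, minus strand), encoding dopachrome tautomerase, was at 221, 207 and 254 CPM in irradiated and 9.02, 7.64 and 9.45 CPM in untreated Foxp3-E2 skin, against 489.8, 258 and 618 CPM in irradiated and 438, 459.9 and 386 CPM in untreated Foxp3-WT skin. Its level in irradiated Foxp3-E2 skin was below that of all Foxp3-WT libraries yet far above untreated Foxp3-E2 skin, with an interaction of 4.61 ± 0.38 (adjusted p = 1.37e-05). Pmel, which builds the fibrils of the granule, had 5.58 ± 0.59 (adjusted p = 7.07e-05), and Mlana, a melanosome protein, 6.04 ± 0.52 (adjusted p = 1.37e-05). Tyrp1, an enzyme of brown and black pigment, had 4.48 ± 0.71 (adjusted p = 0.00154). Slc24a5 and Oca2, which encode ion transport proteins of the granule, had 0 counts in untreated Foxp3-E2 skin, and their log2 interactions were at least 5.16 and 6.24 (adjusted p = 0.00174 and 0.00298). Mc1r, the receptor for melanocyte-stimulating hormone, also had 0 counts there, and its interaction was at least 4.45 (adjusted p = 0.013).

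Regulators of the lineage did not pass. Mitf, the master transcription factor of melanocytes, was at 25.03, 22.99 and 16.8 CPM in irradiated and 27.5, 9.34 and 17.8 CPM in untreated Foxp3-E2 skin, against 29.3, 29.5 and 20.4 CPM in irradiated and 18.9, 30.99 and 20.2 CPM in untreated Foxp3-WT skin. All 4 groups overlapped, and its interaction was 0.07 ± 0.53 (adjusted p = 0.957). Sox10, which acts upstream of Mitf, had 0.06 ± 0.81 (adjusted p = 0.979), and Kit, the receptor that melanocytes and mast cells need to survive, 0.11 ± 0.61 (adjusted p = 0.94). Kit was at 8.70 ± 3.84 CPM in irradiated and 6.43 ± 3.05 CPM in untreated Foxp3-E2 skin, against 47.5 ± 24.8 CPM in irradiated and 38.2 ± 1.31 CPM in untreated Foxp3-WT skin (SD, n = 3), so it was low in both sites of Foxp3-E2 skin.

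The promoters of 4 of these genes are shown because Mitf binds the sequence CATGTG, called the M-box, in pigment gene promoters. Of the 11 genes that rose, 7 had an entry in the RefSeq promoter table (GRCm38.p6, 250 bases before to 50 after the start), and all 7 held CATGTG on either strand, against 15.9% of the 27025 genes of that table and 10.9% of the 11043 tested genes with an entry. A match describes the letters and is not a measured binding site. Capitals mark each match, CATGTG or its reverse complement, and the windows are chr7:87493463-87493762, minus strand (Tyr), chr4:80833963-80834262, plus strand (Tyrp1), chr14:118052197-118052496, minus strand (Dct) and chr2:125067877-125068176, plus strand (Slc24a5).
Tyr: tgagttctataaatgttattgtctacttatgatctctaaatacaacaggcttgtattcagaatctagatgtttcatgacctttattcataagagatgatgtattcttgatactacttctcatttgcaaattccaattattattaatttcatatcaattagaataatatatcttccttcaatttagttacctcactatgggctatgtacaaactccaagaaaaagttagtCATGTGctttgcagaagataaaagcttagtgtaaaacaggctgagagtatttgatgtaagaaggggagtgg
Tyrp1: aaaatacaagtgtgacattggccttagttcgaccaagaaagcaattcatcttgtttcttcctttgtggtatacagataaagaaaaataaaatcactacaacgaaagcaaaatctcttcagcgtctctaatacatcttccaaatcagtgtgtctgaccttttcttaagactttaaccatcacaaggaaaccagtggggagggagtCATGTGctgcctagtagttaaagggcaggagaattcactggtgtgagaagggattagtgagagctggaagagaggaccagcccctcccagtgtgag
Dct: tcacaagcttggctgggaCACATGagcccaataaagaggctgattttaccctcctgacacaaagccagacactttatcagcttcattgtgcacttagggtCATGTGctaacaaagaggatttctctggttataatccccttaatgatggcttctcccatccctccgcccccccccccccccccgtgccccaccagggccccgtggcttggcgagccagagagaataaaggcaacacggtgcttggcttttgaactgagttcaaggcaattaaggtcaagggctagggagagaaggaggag
Slc24a5: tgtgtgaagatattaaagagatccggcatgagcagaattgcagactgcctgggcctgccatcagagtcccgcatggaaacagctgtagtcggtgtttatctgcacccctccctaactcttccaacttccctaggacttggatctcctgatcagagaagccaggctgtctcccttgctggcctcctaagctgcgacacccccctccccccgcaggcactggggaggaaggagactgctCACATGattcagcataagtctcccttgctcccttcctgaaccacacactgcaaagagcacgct

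Hair keratins behaved alike. All 11 inner root sheath genes (100.0%) and 13 of 14 shaft keratins (92.9%) rose in the interaction, against 5.64% of all genes. Their medians were 4.52 and 4.74. With the muscle share as a covariate the inner root sheath count was 6 and the shaft keratin count 10. With voom they were 9 and 12. Krt73 (ENSMUSG00000063661, chromosome 15, 101793308 to 101802346, minus strand), an inner root sheath keratin, was at 678, 506 and 603 CPM in irradiated and 22.7, 7.36 and 12.2 CPM in untreated Foxp3-E2 skin, against 1190.0, 1298 and 1352 CPM in irradiated and 604, 1184 and 1109.8 CPM in untreated Foxp3-WT skin. Irradiated Foxp3-E2 skin lay below 5 of the 6 Foxp3-WT libraries, and untreated Foxp3-E2 skin lay far below all of them, which gave an interaction of 4.98 ± 0.48 (adjusted p = 2.94e-05). Krt25 of the same sheath had 4.76 ± 0.67 (adjusted p = 0.000487), Padi3, which deiminates its proteins, 4.52 ± 0.55 (adjusted p = 0.000152), and Tchh, the trichohyalin substrate of that enzyme, 4.44 ± 0.63 (adjusted p = 0.000486).

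Among shaft keratins, Krt82 of the cuticle was at 93.6, 107 and 92.95 CPM in irradiated and 1.46, 1.98 and 5.001 CPM in untreated Foxp3-E2 skin, against 178, 174 and 258 CPM in irradiated and 139.5, 139.6 and 291 CPM in untreated Foxp3-WT skin, with an interaction of 5.03 ± 0.52 (adjusted p = 5.41e-05). Krt83, Krt86 and Krt87, keratins of the shaft, had interactions of 4.72 ± 0.54, 5.10 ± 0.59 and 4.67 ± 0.53 (adjusted p = 8.60e-05, 9.74e-05 and 8.73e-05). The median UVB change of the shaft keratins was 5.37 in Foxp3-E2 and 0.65 in Foxp3-WT. Krtap24-1, a keratin-associated protein gene, had 0 counts in untreated Foxp3-E2 skin and was at least 327-fold higher in irradiated Foxp3-E2 skin, with an interaction of at least 7.99 (adjusted p = 0.000347). Counts of near-identical copies in this family are uncertain.

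Regulators of the growing follicle split. Of 18 tested, 7 rose (38.9%, against 5.64% of all genes) and 0 fell. The higher count ran from 6 without irradiated Foxp3-E2 replicate 1 to 9 without irradiated Foxp3-WT replicate 3. Lef1, the nuclear partner of beta-catenin in hair matrix and dermal papilla, was at 46.2, 39.7 and 34.99 CPM in irradiated and 1.46, 0.283 and 1.39 CPM in untreated Foxp3-E2 skin, against 95.6, 59.3 and 161 CPM in irradiated and 104, 123 and 102 CPM in untreated Foxp3-WT skin. Its interaction was 5.26 ± 0.57 (adjusted p = 7.07e-05), with untreated Foxp3-E2 skin lowest. Hoxc13, a homeobox factor that drives hair keratin genes, had 3.76 ± 0.46 (adjusted p = 0.000153) and Dlx3, another homeobox factor, 3.19 ± 0.39 (adjusted p = 0.000153). Dsg4, the desmoglein of the shaft, had 1 count in untreated Foxp3-E2 skin, and its ratio of irradiated to untreated Foxp3-E2 was 129 (exact 95% interval of the counts 22.7 to 5131), with adjusted p = 0.00135 for the interaction. Shh, the morphogen of follicle growth, had 0 counts in untreated Foxp3-E2 skin and an adjusted p of 0.0566, and passed with no filter (adjusted p = 0.0285), with DESeq2 (adjusted p = 0.0246) and without irradiated Foxp3-WT replicate 3 (adjusted p = 0.0267). Of 13 bulge and resting follicle genes, 2 rose (15.4%, against 5.64% of all genes) and 1 fell (7.69%, against 4.84%). The one that fell was Krt15, a keratin of bulge stem cells and basal epidermis, at 208, 169 and 99.5 CPM in irradiated and 2383, 1353 and 1289 CPM in untreated Foxp3-E2 skin, against 349.6, 557 and 544 CPM in irradiated and 1310.5, 766 and 815 CPM in untreated Foxp3-WT skin. Irradiated Foxp3-E2 libraries were the lowest, and untreated Foxp3-E2 libraries overlapped only untreated Foxp3-WT, with an interaction of -2.40 ± 0.47 (adjusted p = 0.00513). Those that rose were Sox9, a stem cell factor, at 1.42 ± 0.42 (adjusted p = 0.0417), and Foxc1, a factor of bulge quiescence, at 1.44 ± 0.44 (adjusted p = 0.0477). For Sox9 its call was lost in 9 of the 12 fits that left out 1 library, all but those without untreated Foxp3-E2 replicate 1, irradiated Foxp3-WT replicate 2 or untreated Foxp3-WT replicate 3 (adjusted p up to 0.101). For Foxc1 its call was lost in 11 of the 12 fits that left out 1 library, all but those without irradiated Foxp3-E2 replicate 2 (adjusted p up to 0.115).

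Cell division genes rose together. Of 26 tested, 20 passed higher (76.9%, against 5.64% of all genes) and 0 lower. The median interaction was 2.77, with median UVB changes of 2.75 in Foxp3-E2 and -0.06 in Foxp3-WT. With 1 library left out, the count ran from 16 without irradiated Foxp3-E2 replicate 2 to 23 without irradiated Foxp3-WT replicate 3. It was 12 with the muscle share as a covariate. Ube2c (ENSMUSG00000001403, chromosome 2, 164769898 to 164778822, plus strand), which encodes the ubiquitin-conjugating enzyme of the anaphase-promoting complex, was at 122, 125 and 125 CPM in irradiated and 14.1, 14.4 and 18.3 CPM in untreated Foxp3-E2 skin, against 145, 75.3 and 139.6 CPM in irradiated and 129.7, 118 and 115 CPM in untreated Foxp3-WT skin. Untreated Foxp3-E2 libraries lay below the other 9, which overlapped, and the interaction was 3.00 ± 0.33 (adjusted p = 7.26e-05). Cdc20, the activator of that complex, had 3.49 ± 0.45 (adjusted p = 0.00024), Ccnb2, a mitotic cyclin, 3.41 ± 0.44 (adjusted p = 0.000229), and Top2a, the topoisomerase of dividing cells, 2.78 ± 0.35 (adjusted p = 0.00021). Mki67, the proliferation antigen Ki-67, had 3.17 ± 0.61 (adjusted p = 0.0057). The genotype difference, Foxp3-E2 minus Foxp3-WT, at the irradiated site was 0.05 ± 0.22 for Ube2c and -0.08 ± 0.24 for Top2a, and -2.95 ± 0.25 and -2.86 ± 0.27 at the untreated site.

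The promoters of Ube2c and Cdc20 are shown because late cell cycle genes are known for a CHR element near the start, here searched as TTTGAA on either strand. Among the 20 division genes that rose, 17 had an entry and 9 of these (52.9%) held it, against 20.2% of all genes of the table and 14.9% of tested genes. CCAAT, often found beside it, was in 14 of the 17 (82.4%), against 41.1% and 42.1%. Capitals mark TTTGAA or its reverse complement. The windows are chr2:164769679-164769978, plus strand (Ube2c) and chr4:118437294-118437593, minus strand (Cdc20).
Ube2c: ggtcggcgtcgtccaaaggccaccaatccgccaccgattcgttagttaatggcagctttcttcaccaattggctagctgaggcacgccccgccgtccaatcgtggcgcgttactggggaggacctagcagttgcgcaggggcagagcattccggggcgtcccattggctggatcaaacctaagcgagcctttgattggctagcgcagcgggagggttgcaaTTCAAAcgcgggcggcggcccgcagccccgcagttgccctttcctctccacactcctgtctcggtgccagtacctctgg
Cdc20: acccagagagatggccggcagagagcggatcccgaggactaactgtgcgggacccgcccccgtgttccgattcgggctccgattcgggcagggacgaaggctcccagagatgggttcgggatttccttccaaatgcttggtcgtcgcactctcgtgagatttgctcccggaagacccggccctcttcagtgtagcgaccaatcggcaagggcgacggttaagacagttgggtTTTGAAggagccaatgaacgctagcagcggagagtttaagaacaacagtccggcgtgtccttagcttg

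**Figure D3:**
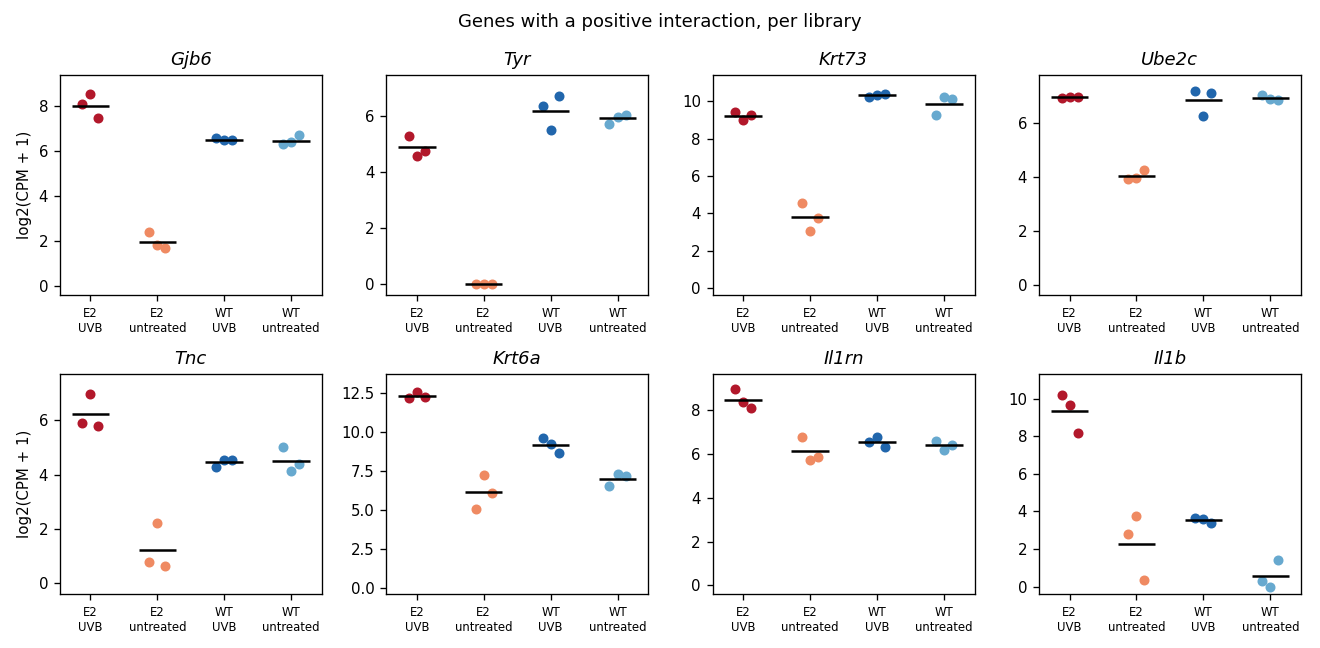
CPM per library on a log2(CPM + 1) scale for 8 genes in the 4 groups, 1 point per library and a line at the group mean. Tyr, Krt73 and Ube2c are low in untreated Foxp3-E2 skin alone, while Krt6a, Il1rn and Il1b are highest in irradiated Foxp3-E2 skin.

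The 2 lowest adjusted p-values belonged to connexins, which form gap junctions between keratinocytes. Gjb6 (ENSMUSG00000040055, chromosome 14, 57123303 to 57133611, minus strand), encoding connexin 30, was at 271, 363 and 175 CPM in irradiated and 4.39, 2.55 and 2.22 CPM in untreated Foxp3-E2 skin, against 93.4, 88.8 and 88.2 CPM in irradiated and 77.5, 82.5 and 105 CPM in untreated Foxp3-WT skin. Irradiated Foxp3-E2 libraries were the 3 highest and untreated Foxp3-E2 libraries the 3 lowest, and the interaction was 6.40 ± 0.41 (adjusted p = 2.14e-06). Gjb2 (ENSMUSG00000046352, chromosome 14, 57098600 to 57104702, minus strand), its neighbour on the chromosome, encodes connexin 26 and was at 587, 632 and 456 CPM in irradiated and 13.2, 10.8 and 5.83 CPM in untreated Foxp3-E2 skin, against 386, 388 and 418 CPM in irradiated and 252, 402 and 279.7 CPM in untreated Foxp3-WT skin. Its UVB change was 5.80 ± 0.31 in Foxp3-E2 and 0.35 ± 0.24 in Foxp3-WT, an interaction of 5.45 ± 0.38 (adjusted p = 3.14e-06). Both kept adjusted p-values under 0.05 with any 1 library left out.

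Keratinocyte genes of wounding and hyperproliferation rose further in irradiated Foxp3-E2 skin. Of 22 tested, 13 rose (59.1%, against 5.64% of all genes) and 0 fell, with a median UVB change of 5.58 in Foxp3-E2 and 1.90 in Foxp3-WT. The count ran from 9 without untreated Foxp3-WT replicate 3 to 15 without untreated Foxp3-E2 replicate 2. Krt6a (ENSMUSG00000058354, chromosome 15, 101689910 to 101694307, minus strand), a stress keratin, was at 4571, 6131 and 4797 CPM in irradiated and 32.9, 153 and 66.7 CPM in untreated Foxp3-E2 skin, against 785, 601 and 396 CPM in irradiated and 90.6, 158 and 145 CPM in untreated Foxp3-WT skin. It was highest in irradiated Foxp3-E2 skin and second in irradiated Foxp3-WT skin, with no overlap between them, and the interaction was 3.76 ± 0.62 (adjusted p = 0.0016). Krt17, another stress keratin, had 2.36 ± 0.32 (adjusted p = 0.000338). Hbegf, a ligand of the EGF receptor, was at 95.9 ± 0.756 CPM in irradiated and 14.4 ± 7.49 CPM in untreated Foxp3-E2 skin, against 20.02 ± 8.16 CPM in irradiated and 20.9 ± 4.57 CPM in untreated Foxp3-WT skin (SD, n = 3), with an interaction of 2.80 ± 0.53 (adjusted p = 0.00422). Its 3 irradiated Foxp3-E2 libraries were the highest of the 12. In this list irradiated Foxp3-E2 skin lay above the other 9 libraries for 18 of 22 genes, against 5.55% of all genes. Untreated Foxp3-E2 skin lay below the other 9 for 7 of the 22, against 10.8% of all genes.

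Of 15 tested keratins and adhesion genes of resting epidermis, 2 rose (13.3%, against 5.64% of all genes) and 1 fell (6.67%, against 4.84%). The higher count ran from 1 without irradiated Foxp3-E2 replicate 1 to 8 without untreated Foxp3-E2 replicate 1, and was 1 with the muscle share as a covariate, 4 with DESeq2 and 8 without both untreated Foxp3-E2 replicate 1 and irradiated Foxp3-WT replicate 2. Krt14 (ENSMUSG00000045545, chromosome 11, 100203162 to 100207548, minus strand), the basal keratin and among the most abundant genes past the threshold, was at 13289, 17322 and 16241 CPM in irradiated and 5268, 3950.4 and 2886 CPM in untreated Foxp3-E2 skin, against 2712, 2444 and 1742 CPM in irradiated and 2415, 1777 and 2719 CPM in untreated Foxp3-WT skin. Irradiated Foxp3-E2 skin was highest, and the interaction was 1.96 ± 0.42 (adjusted p = 0.00998). Krt5, its basal partner, did not pass at 0.93 ± 0.38 (adjusted p = 0.13), nor did the suprabasal keratins Krt1 at 1.03 ± 0.53 (adjusted p = 0.234) and Krt10 at -0.84 ± 0.44 (adjusted p = 0.243). Krt5 passed without untreated Foxp3-E2 replicate 1 (adjusted p = 0.0178) and without both untreated Foxp3-E2 replicate 1 and irradiated Foxp3-WT replicate 2 (adjusted p = 0.0128). Dsc1, a desmosomal cadherin, had 1.47 ± 0.42 (adjusted p = 0.0387), and its call was lost in 9 of the 12 fits that left out 1 library, all but those without irradiated Foxp3-E2 replicate 3, untreated Foxp3-E2 replicate 1 or untreated Foxp3-WT replicate 1 (adjusted p up to 0.0945). Krt77, a keratin of the suprabasal layer and sweat ducts, fell by 3.88 on the log2 scale (adjusted p = 0.0236), and its call was lost without untreated Foxp3-WT replicate 1 or untreated Foxp3-WT replicate 2 (adjusted p up to 0.0694).

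Among 20 genes of late differentiation and the barrier, 6 fell (30.0%, against 4.84% of all genes) and 1 rose. The lower count ran from 2 without untreated Foxp3-WT replicate 2 to 7 without irradiated Foxp3-WT replicate 3. With no composition factor 3 rose and 3 fell, as also without both untreated Foxp3-E2 replicate 1 and irradiated Foxp3-WT replicate 2, and with the muscle share as a covariate 1 rose and 2 fell. Lce1m (ENSMUSG00000027912, chromosome 3, 93017810 to 93019060, minus strand), a late cornified envelope gene, was at 34.8, 37.03 and 10.6 CPM in irradiated and 1331, 868 and 851 CPM in untreated Foxp3-E2 skin, against 167, 492 and 233 CPM in irradiated and 698, 436 and 662 CPM in untreated Foxp3-WT skin. It was lowest in irradiated and highest in untreated Foxp3-E2 skin, each with no overlap with the other groups. The interaction was -4.18 ± 0.62 (adjusted p = 0.000918). Flg2, filaggrin 2, was at 36.5, 36.3 and 27.3 CPM in irradiated and 564, 367 and 289 CPM in untreated Foxp3-E2 skin, against 105, 236 and 95.8 CPM in irradiated and 311, 226 and 329 CPM in untreated Foxp3-WT skin, with -2.62 ± 0.47 (adjusted p = 0.00291). Lor, the main envelope protein loricrin, had -1.92 ± 0.43 (adjusted p = 0.0122), and its call was lost without untreated Foxp3-WT replicate 2 (adjusted p up to 0.051). Casp14, the protease that processes filaggrin, went the other way, at 549, 518 and 471 CPM in irradiated and 48.7, 46.1 and 45.8 CPM in untreated Foxp3-E2 skin, against 256, 179 and 137 CPM in irradiated and 120.2, 50.8 and 129.7 CPM in untreated Foxp3-WT skin, with 2.52 ± 0.42 (adjusted p = 0.0017). Untreated Foxp3-E2 libraries were the lowest and irradiated ones the highest. Flg, filaggrin itself, had 0.83 ± 0.38 (adjusted p = 0.182).

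Genes of the Skint family, which encode membrane proteins of keratinocytes related to the one that selects dendritic epidermal T cells, fell in part. Of 11 tested, 5 fell (45.5%, against 4.84% of all genes) and 0 rose. The lower count ran from 3 without irradiated Foxp3-E2 replicate 1 to 5 without untreated Foxp3-WT replicate 1. Skint5 (ENSMUSG00000078598, chromosome 4, 113477891 to 113999503, minus strand) was at 0.544, 1.21 and 0 CPM in irradiated and 84.8, 30.6 and 27.5 CPM in untreated Foxp3-E2 skin, against 7.94, 10.8 and 6.69 CPM in irradiated and 41.1, 13.98 and 28.1 CPM in untreated Foxp3-WT skin. It was nearly lost in irradiated Foxp3-E2 skin, below every other library, and the interaction was -4.43 ± 0.90 (adjusted p = 0.00704). Skint9 had -3.20 ± 0.70 (adjusted p = 0.011) and Skint10 -2.54 ± 0.58 (adjusted p = 0.0127). Skint1, the selecting member, did not pass, at 0.82 ± 0.62 (adjusted p = 0.446), and passed without irradiated Foxp3-WT replicate 2 (adjusted p = 0.042) and without both untreated Foxp3-E2 replicate 1 and irradiated Foxp3-WT replicate 2 (adjusted p = 0.0226). The lower count was 2 with voom and 3 without both untreated Foxp3-E2 replicate 1 and irradiated Foxp3-WT replicate 2. Counts are uncertain where the near-identical copies of this family share reads. Ccl27a, a chemokine made by keratinocytes that draws T cells to skin, was at 12.2, 14.5 and 27.7 CPM in irradiated and 326, 172 and 152 CPM in untreated Foxp3-E2 skin, against 27.4, 91.3 and 46.5 CPM in irradiated and 114, 117 and 96.3 CPM in untreated Foxp3-WT skin. Irradiated Foxp3-E2 libraries were the lowest but for 1 overlap with irradiated Foxp3-WT, and untreated Foxp3-E2 libraries were the highest. The interaction was -2.61 ± 0.58 (adjusted p = 0.0124).

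**Figure D4:**
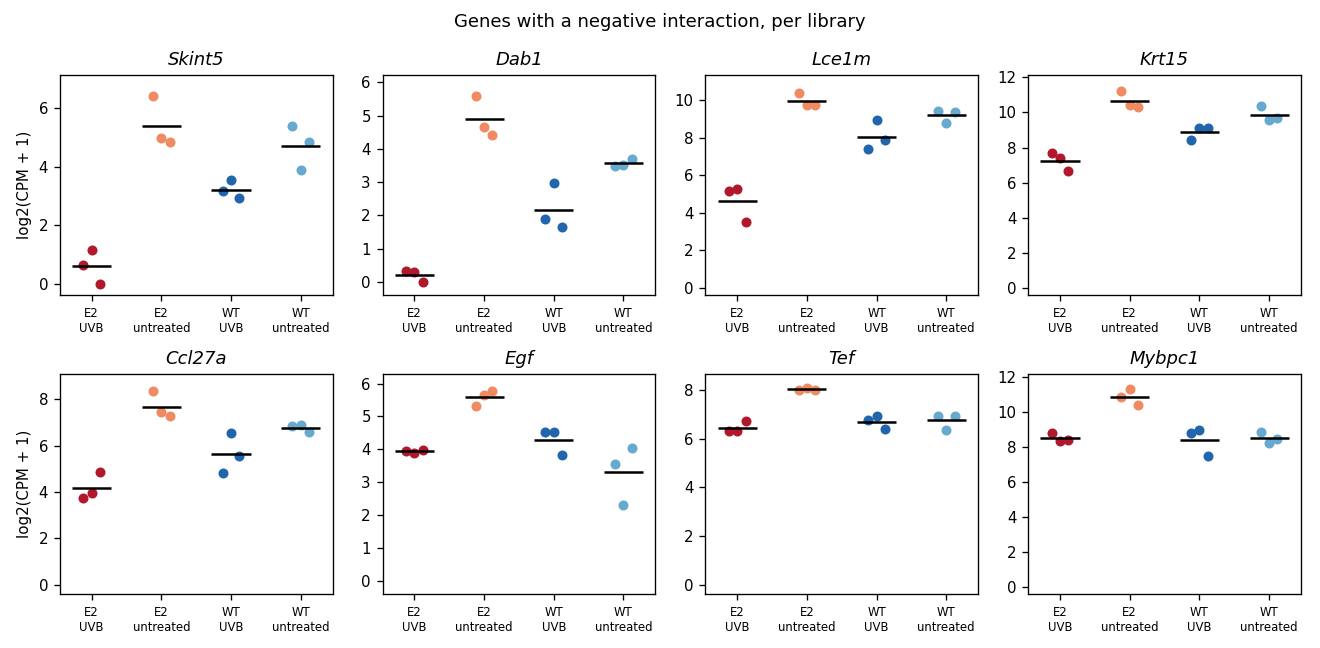
CPM per library on a log2(CPM + 1) scale for 8 genes in the 4 groups, 1 point per library and a line at the group mean. Skint5, Dab1, Lce1m, Krt15 and Ccl27a are lowest in irradiated Foxp3-E2 skin. Dab1, Lce1m and Ccl27a, like Egf, Tef and Mybpc1, are highest in untreated Foxp3-E2 skin.

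For several cytokine genes the interaction depended on the processing. Il1b (ENSMUSG00000027398, chromosome 2, 129364570 to 129371139, minus strand), encoding interleukin 1 beta and named here after its values were seen, was at 1159, 817 and 291 CPM in irradiated and 5.85, 12.5 and 0.278 CPM in untreated Foxp3-E2 skin, against 11.5, 11.3 and 9.43 CPM in irradiated and 0.218, 0 and 1.67 CPM in untreated Foxp3-WT skin. Irradiated Foxp3-E2 libraries were the highest, and irradiated Foxp3-WT libraries also lay above most untreated ones. Its UVB change was 6.93 ± 0.79 in Foxp3-E2 (adjusted p = 3.80e-05) and 3.98 ± 0.99 in Foxp3-WT, and the interaction was 2.95 ± 1.58 (adjusted p = 0.26). The neutrophil attractant Cxcl2 had 5.09 ± 2.26 (adjusted p = 0.169), and Ccl4, an attractant of monocytes and T cells, 4.89 ± 1.91 (adjusted p = 0.118). S100a8 and S100a9, the subunits of calprotectin, had 3.50 ± 1.19 (adjusted p = 0.0752) and 2.45 ± 1.13 (adjusted p = 0.185). These 5 genes passed with no filter on low counts. Adjusted p-values there were 0.000257 for Il1b, 1.03e-09 for Cxcl2, 2.92e-07 for Ccl4, 4.73e-18 for S100a8 and 3.31e-08 for S100a9. Their log2 interactions in that fit of 28874 genes were 2.957, 5.087, 4.895, 3.503 and 2.456, near those above. The p-values thus changed with the estimated spread and not with the size of the interaction. Without untreated Foxp3-E2 replicate 2, Cxcl2, S100a8 and S100a9 passed (adjusted p = 0.0404, 2.35e-05 and 0.00958). S100a8 also passed with no composition factor (adjusted p = 0.0397) and with voom (adjusted p = 0.00936).

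Members of the IL-1 family that passed were 2 of 16 (12.5%, against 5.64% of all genes), both higher. The count ran from 1 without irradiated Foxp3-E2 replicate 2 to 3 without irradiated Foxp3-WT replicate 2. Il1rn (ENSMUSG00000026981, chromosome 2, 24336853 to 24351494, plus strand), which encodes the IL-1 receptor antagonist, was at 502, 329.9 and 277 CPM in irradiated and 109, 52.9 and 56.7 CPM in untreated Foxp3-E2 skin, against 91.8, 109 and 78.8 CPM in irradiated and 96.2, 71.5 and 85.9 CPM in untreated Foxp3-WT skin. Its interaction was 2.20 ± 0.40 (adjusted p = 0.00344), with irradiated Foxp3-E2 skin above the other 9 libraries. Il33 (ENSMUSG00000024810, chromosome 19, 29925114 to 29960718, plus strand), an alarmin of epithelial cells, was at 114, 203 and 111 CPM in irradiated and 52.4, 45.6 and 33.3 CPM in untreated Foxp3-E2 skin, against 9.04, 10.1 and 6.99 CPM in irradiated and 10.4, 5.82 and 17.9 CPM in untreated Foxp3-WT skin. Both Foxp3-E2 sites were above Foxp3-WT skin. Its interaction was 2.09 ± 0.51 (adjusted p = 0.0192), and its call was lost without irradiated Foxp3-E2 replicate 2, untreated Foxp3-E2 replicate 3 or untreated Foxp3-WT replicate 3 (adjusted p up to 0.061). Il1f6, the gene of IL-36 alpha, had 2.17 ± 0.78 (adjusted p = 0.0897), and passed with no filter (adjusted p = 0.000572), with DESeq2 (adjusted p = 0.0497) and without untreated Foxp3-WT replicate 2 (adjusted p = 0.0164). The count of the list was 1 with the muscle share as a covariate, 4 with DESeq2 and 1 with voom.

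Of 18 antimicrobial genes 12 were above the filter on low counts, and 2 of these rose (16.7%, against 5.64% of all genes). The count ran from 1 without untreated Foxp3-WT replicate 2 to 5 without untreated Foxp3-E2 replicate 2. Those that rose were Slpi at 4.48 ± 0.79 (adjusted p = 0.00271) and Saa3 at 4.63 ± 1.05 (adjusted p = 0.0124). Slpi encodes a protease inhibitor of inflamed epithelium and Saa3 an acute-phase protein. Slpi was at 137, 149 and 94.8 CPM in irradiated and 1.95, 3.68 and 2.78 CPM in untreated Foxp3-E2 skin, against 5.48, 15.5 and 7.60 CPM in irradiated and 2.83, 1.40 and 9.80 CPM in untreated Foxp3-WT skin, highest in irradiated Foxp3-E2 skin. For Saa3 its call was lost without untreated Foxp3-WT replicate 2 (adjusted p up to 0.058). The antimicrobial count was 1 with the muscle share as a covariate and 5 with no composition factor. Of 18 neutrophil genes 4 rose (22.2%, against 5.64% of all genes) and 0 fell. With 1 library left out, the neutrophil count ran from 2 without irradiated Foxp3-E2 replicate 1 to 6 without untreated Foxp3-E2 replicate 2. The count was 0 with the muscle share as a covariate and 7 with no composition factor. They were Hcar2, a receptor for hydroxylated fatty acids, at 2.80 ± 0.57 (adjusted p = 0.00704), Stfa2, a stefin gene, at 4.20 ± 0.91 (adjusted p = 0.00992), Stfa3 at 2.57 ± 0.71 (adjusted p = 0.0365) and Csf3r, the receptor for granulocyte colony-stimulating factor. Csf3r had 0 counts in untreated Foxp3-E2 skin and 38 in untreated Foxp3-WT skin. Its interaction was 7.92 with the 0 set at a floor of 3 counts and the other groups as counted (adjusted p = 0.036 in edgeR). Over the alternatives its log2 interaction ran from 4.46 to 30.4. For Csf3r its call was lost in 7 of the 12 fits that left out 1 library, all but those without irradiated Foxp3-E2 replicate 3, irradiated Foxp3-WT replicate 2, irradiated Foxp3-WT replicate 3, untreated Foxp3-WT replicate 2 or untreated Foxp3-WT replicate 3 (adjusted p up to 1). For Stfa3 its call was lost in 8 of the 12 fits that left out 1 library, all but those without untreated Foxp3-E2 replicate 2, irradiated Foxp3-WT replicate 1, irradiated Foxp3-WT replicate 3 or untreated Foxp3-WT replicate 2 (adjusted p up to 0.116). Summed neutrophil markers (Csf3r, Cxcr2, Clec4d and S100a8) were at 2054 to 2399 CPM in irradiated and 4.72 to 107 CPM in untreated Foxp3-E2 skin. In Foxp3-WT skin they were at 123 to 232 CPM in irradiated and 29.6 to 46.4 CPM in untreated libraries. Over the irradiated Foxp3-E2 libraries Csf3r held 312 and Cxcr2 215 counts, where 3 counts are 0.284 CPM. Most of the sum there thus came from the other markers, S100a8 and Clec4d. S100a8 did not pass the test of the interaction. The median UVB change of the neutrophil list was 6.44 in Foxp3-E2 and 2.47 in Foxp3-WT, but 8 of its 18 tested genes had 0 counts in a group. Its median interaction was 2.93, or 3.67 with those genes placed at a floor of 3 counts per group. Reads of the near-identical stefin genes may be divided between them.

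Of 22 macrophage and monocyte genes 4 rose (18.2%, against 5.64% of all genes) and 0 fell. The list as a whole was near all genes, with a median interaction of 0.10 against 0.04 and 13 of 22 positive, against 7836 of 15126. With 1 library left out, the higher count ran from 2 without untreated Foxp3-WT replicate 2 to 4 without irradiated Foxp3-E2 replicate 3. The count was 1 with the muscle share as a covariate and 2 with voom. Arg1 (ENSMUSG00000019987, chromosome 10, 24915221 to 24927484, minus strand), arginase 1 of alternatively activated macrophages, which keratinocytes also make, was at 336, 513 and 381 CPM in irradiated and 55.8, 23.2 and 21.7 CPM in untreated Foxp3-E2 skin, against 95.6, 60.5 and 55.04 CPM in irradiated and 52.5, 75.3 and 53.99 CPM in untreated Foxp3-WT skin. Irradiated Foxp3-E2 skin was highest, and the interaction was 3.39 ± 0.48 (adjusted p = 0.000463). Cd14, the co-receptor for lipopolysaccharide, had 2.97 ± 0.69 (adjusted p = 0.0154). Spp1, osteopontin, had 1.75 ± 0.53 (adjusted p = 0.0463). For Cd14 its call was lost without untreated Foxp3-WT replicate 2 (adjusted p up to 0.0704). For Spp1 its call was lost in 9 of the 12 fits that left out 1 library, all but those without irradiated Foxp3-E2 replicate 3, untreated Foxp3-E2 replicate 3 or untreated Foxp3-WT replicate 1 (adjusted p up to 0.113). Macrophage markers were counted in all 12 libraries, at a summed 199 to 281 CPM in irradiated and 123 to 226 CPM in untreated Foxp3-E2, against 94.0 to 222 CPM in irradiated and 48.4 to 143 CPM in untreated Foxp3-WT skin. Their part in these results was not tested.

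Of 16 type 2 and mast cell genes 3 rose (18.8%, against 5.64% of all genes) and 1 fell (6.25%, against 4.84%). With 1 library left out, the higher count ran from 2 without irradiated Foxp3-E2 replicate 2 to 4 without irradiated Foxp3-WT replicate 2. The higher count was 6 without both untreated Foxp3-E2 replicate 1 and irradiated Foxp3-WT replicate 2. Those higher were Arg1, Il33 and Il4ra, the shared receptor chain of interleukins 4 and 13, at 2.17 ± 0.36 (adjusted p = 0.0016). Il4ra was at 109, 201 and 125 CPM in irradiated and 28.3, 23.8 and 23.1 CPM in untreated Foxp3-E2 skin, against 32.3, 45.5 and 36.2 CPM in irradiated and 28.7, 25.6 and 33.98 CPM in untreated Foxp3-WT skin, highest in irradiated Foxp3-E2 skin. Mrgprb2, the receptor of connective tissue mast cells for secretagogues, was at 0, 0 and 0 CPM in irradiated and 7.07, 9.34 and 10.8 CPM in untreated Foxp3-E2 skin, against 2.47, 0.492 and 0.608 CPM in irradiated and 4.35, 7.46 and 6.25 CPM in untreated Foxp3-WT skin. It had 0 counts in irradiated Foxp3-E2 skin, at least 31.6-fold lower than in untreated Foxp3-E2 skin (adjusted p = 0.0317 for the interaction), and its call was lost in 9 of the 12 fits that left out 1 library, all but those without untreated Foxp3-E2 replicate 1, irradiated Foxp3-WT replicate 2 or irradiated Foxp3-WT replicate 3 (adjusted p up to 0.0717). The mast cell proteases Cma1, Mcpt4 and Tpsb2 did not pass, at 0.18 ± 0.93, 0.45 ± 0.76 and 0.46 ± 0.86.

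Of 17 T cell genes 16 had a positive interaction, against 7836 of all 15126, with a median of 1.20 against 0.04 over all genes. In edgeR 0 of them passed, with 3 at an unadjusted p under 0.05, 0 by voom and 1 by DESeq2. Over all genes, 4018 of 15126 had an unadjusted p under 0.05. By voom 1119 of 15126 passed, and by DESeq2 2326 of 21061. Trbc2, the constant region of the T cell receptor beta chain, was at 35.9, 51.3 and 52.1 CPM in irradiated and 18.8, 26.03 and 16.9 CPM in untreated Foxp3-E2 skin, against 15.9, 14.3 and 13.99 CPM in irradiated and 18.5, 11.6 and 15.6 CPM in untreated Foxp3-WT skin. Irradiated Foxp3-E2 skin was highest, and the interaction was 1.23 ± 0.42 (adjusted p = 0.0713). Trbc2 passed with no composition factor (adjusted p = 0.0342) and with DESeq2 (adjusted p = 0.0387). Of 16 regulatory T cell genes 9, Foxp3 among them, were below the filter on low counts. Of the 7 tested (median -0.03) 0 passed, with 1 at an unadjusted p under 0.05 and 0 by voom and DESeq2. With no filter 1 of the 16 fell and 0 rose (median 0.38). Of 14 cytotoxic lymphocyte genes 7 were tested. Of these 6 were positive (median 1.83, against 7836 of all 15126 genes positive). In edgeR 0 passed, with 1 unadjusted, 0 by voom and 1 by DESeq2. Nkg7, a granule protein, had 3.07 ± 1.02 (adjusted p = 0.0674), and passed with no filter (adjusted p = 0.0128), with DESeq2 (adjusted p = 0.0114), without untreated Foxp3-E2 replicate 1 (adjusted p = 0.0497), without irradiated Foxp3-WT replicate 1 (adjusted p = 0.0224) and without both untreated Foxp3-E2 replicate 1 and irradiated Foxp3-WT replicate 2 (adjusted p = 0.0379). Of 26 type I interferon genes (median 0.41) 0 passed, with 1 unadjusted and 0 by voom and DESeq2, and Oasl1, an antiviral synthetase-like gene, had 2.76 ± 1.26 (adjusted p = 0.176). Oasl1 passed without irradiated Foxp3-WT replicate 2 (adjusted p = 0.0293) and without both untreated Foxp3-E2 replicate 1 and irradiated Foxp3-WT replicate 2 (adjusted p = 0.0249). Of 22 interferon gamma genes (median -0.18), Iigp1, an immunity-related GTPase, was the only one to pass, at -3.18 ± 0.95 (adjusted p = 0.0486), and its call was lost in 10 of the 12 fits that left out 1 library, all but those without untreated Foxp3-E2 replicate 2 or untreated Foxp3-WT replicate 1 (adjusted p up to 0.11). Without both untreated Foxp3-E2 replicate 1 and irradiated Foxp3-WT replicate 2, 4 genes of this list rose and 0 fell.

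Of 23 IL-17, IL-22 and IL-6 family genes 12 were tested and 11 were below the filter on low counts. Il17ra, the IL-17 receptor chain, was the only 1 of those tested to pass, at 1.25 ± 0.37 (adjusted p = 0.0442). Its call was lost in 10 of the 12 fits that left out 1 library, all but those without untreated Foxp3-E2 replicate 1 or irradiated Foxp3-WT replicate 3 (adjusted p up to 0.114). Il24 and Il19, cytokines of inflamed keratinocytes, had 0 counts in untreated Foxp3-E2 skin and adjusted p-values of 0.0786 and 0.0977. Il24 passed with no filter (adjusted p = 0.00275), with the muscle share as a covariate (adjusted p = 0.044), with DESeq2 (adjusted p = 0.0455), without irradiated Foxp3-WT replicate 2 (adjusted p = 0.0475) and without both untreated Foxp3-E2 replicate 1 and irradiated Foxp3-WT replicate 2 (adjusted p = 0.0368). Il19 passed with no filter (adjusted p = 0.0198) and with DESeq2 (adjusted p = 0.0461). Of this list DESeq2 called 4 of 17 higher, against 1220 of 21061 over all genes, and voom called 0. Of 13 CXC chemokine genes and receptors 0 passed, with 3 unadjusted, 0 by voom and 2 by DESeq2. The unadjusted count over all genes was 4018 of 15126. Ccl27a was the only 1 of 18 CC chemokine genes to pass. Fscn1, the actin bundler of mature dendritic cells, which epithelial cells also make, was the only 1 of 14 dendritic genes to pass, at 2.98 ± 0.66 (adjusted p = 0.0115).

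Matrix genes rose in part. Of 26 collagens and glycoproteins 4 rose (15.4%, against 5.64% of all genes) and 1 fell (3.85%, against 4.84%). The higher count ran from 2 without irradiated Foxp3-E2 replicate 2 to 9 without untreated Foxp3-E2 replicate 1. It was 2 with the muscle share as a covariate, 7 with no composition factor and 8 without both untreated Foxp3-E2 replicate 1 and irradiated Foxp3-WT replicate 2. Tnc (ENSMUSG00000028364, chromosome 4, 63959785 to 64047015, minus strand), tenascin C, a matrix protein of wounds, was at 58.5, 125 and 55.04 CPM in irradiated and 0.731, 3.68 and 0.556 CPM in untreated Foxp3-E2 skin, against 18.6, 22.4 and 22.5 CPM in irradiated and 31.3, 16.8 and 20.01 CPM in untreated Foxp3-WT skin. Irradiated Foxp3-E2 skin was highest and untreated Foxp3-E2 lowest, with an interaction of 5.69 ± 0.71 (adjusted p = 0.000166). Col12a1, a collagen of stressed connective tissue, was at 64.2, 171 and 85.3 CPM in irradiated and 6.82, 6.51 and 7.50 CPM in untreated Foxp3-E2 skin, against 17.8, 20.7 and 20.98 CPM in irradiated and 31.1, 22.4 and 19.6 CPM in untreated Foxp3-WT skin, with 4.24 ± 0.49 (adjusted p = 8.78e-05). Col6a3, of the collagen VI microfibril, had 1.92 ± 0.49 (adjusted p = 0.0217), and its call was lost without irradiated Foxp3-E2 replicate 2, irradiated Foxp3-E2 replicate 3, untreated Foxp3-E2 replicate 3 or irradiated Foxp3-WT replicate 2 (adjusted p up to 0.0662). Col4a6, a basement membrane collagen, had 2 counts in irradiated Foxp3-E2 skin and a ratio of irradiated to untreated Foxp3-E2 of 0.013 (exact 95% interval of the counts 0.00156 to 0.0477). Its interaction was the one that fell (adjusted p = 0.0182), and its call was lost without irradiated Foxp3-E2 replicate 2 or untreated Foxp3-WT replicate 2 (adjusted p up to 0.0542). The fibrillar collagens Col1a1 and Col3a1 did not pass, at 1.25 ± 0.56 and 0.82 ± 0.44. Col1a1 passed with no filter (adjusted p = 0.00814), without untreated Foxp3-E2 replicate 1 (adjusted p = 0.00607) and without both untreated Foxp3-E2 replicate 1 and irradiated Foxp3-WT replicate 2 (adjusted p = 0.0103). Col3a1 passed without untreated Foxp3-E2 replicate 1 (adjusted p = 0.0455). Of 16 proteases and inhibitors only Mmp13, a collagenase, passed, at 5.82 ± 1.60 (adjusted p = 0.0342), and its call was lost in 7 of the 12 fits that left out 1 library, all but those without untreated Foxp3-E2 replicate 1, untreated Foxp3-E2 replicate 2, irradiated Foxp3-WT replicate 2, irradiated Foxp3-WT replicate 3 or untreated Foxp3-WT replicate 2 (adjusted p up to 0.0873). The protease count ran from 0 without irradiated Foxp3-E2 replicate 1 to 4 without untreated Foxp3-E2 replicate 1, and was 4 with DESeq2, 2 with voom, 4 with no composition factor and 5 without both untreated Foxp3-E2 replicate 1 and irradiated Foxp3-WT replicate 2.

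Immediate early genes rose in 7 of 19 (36.8%, against 5.64% of all genes) and fell in 0. The count ran from 4 without irradiated Foxp3-E2 replicate 1 to 8 without untreated Foxp3-E2 replicate 1, and was 3 with the muscle share as a covariate. Fosl2 and Junb, subunits of AP-1, had 1.69 ± 0.29 (adjusted p = 0.00208) and 1.70 ± 0.38 (adjusted p = 0.0114), and Ier3, an early response gene of survival, 2.07 ± 0.36 (adjusted p = 0.0023). Fosl2 was at 126, 120.3 and 129 CPM in irradiated and 52.4, 34.8 and 43.1 CPM in untreated Foxp3-E2 skin, against 66.3, 68.1 and 88.8 CPM in irradiated and 70.5, 93.7 and 85.5 CPM in untreated Foxp3-WT skin, highest in irradiated and lowest in untreated Foxp3-E2 skin. Fos did not pass, at 0.27 ± 0.72 (adjusted p = 0.858). Of 15 EGF receptor genes, Hbegf rose and Egf fell. Egf (ENSMUSG00000028017, chromosome 3, 129677565 to 129755316, minus strand), the epidermal growth factor gene, was at 14.4, 13.8 and 14.9 CPM in irradiated and 38.99, 49.2 and 53.6 CPM in untreated Foxp3-E2 skin, against 22.2, 21.9 and 13.1 CPM in irradiated and 10.7, 3.96 and 15.4 CPM in untreated Foxp3-WT skin. Untreated Foxp3-E2 skin was highest, and the interaction was -2.64 ± 0.56 (adjusted p = 0.00926).

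Genes of p53 and of excision repair, the classic response to UVB damage, passed at near the share of all genes. Of 22 tested, 1 rose (4.55%, against 5.64% of all genes) and 1 fell (4.55%, against 4.84%). Pmaip1, the cell death factor Noxa, had 3.04 ± 0.66 (adjusted p = 0.0106). Ccng1, cyclin G1, had -2.69 ± 0.63 (adjusted p = 0.0175), and its call was lost without untreated Foxp3-E2 replicate 3 or untreated Foxp3-WT replicate 2 (adjusted p up to 0.0527). Cdkn1a, the cell cycle inhibitor p21, was at 613, 523 and 612 CPM in irradiated and 408, 391 and 338 CPM in untreated Foxp3-E2 skin, against 545, 607 and 648 CPM in irradiated and 455, 653 and 522 CPM in untreated Foxp3-WT skin. Its interaction was 0.48 ± 0.27 (adjusted p = 0.284), and Mdm2, the ligase that limits p53, had -0.58 ± 0.38 (adjusted p = 0.369).

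Skeletal muscle genes fell in part. Of 29 tested, 13 fell (44.8%, against 4.84% of all genes) and 0 rose, with a median interaction of -2.16. The count ran from 1 without irradiated Foxp3-E2 replicate 2 to 25 without irradiated Foxp3-WT replicate 3. It was 3 with voom, 3 with no composition factor, 20 with DESeq2 and 0 with the muscle share, made of these genes, as a covariate. Mybpc1 (ENSMUSG00000020061, chromosome 10, 88518279 to 88605152, minus strand), a myosin-binding protein of slow fibres, was at 455, 323 and 335 CPM in irradiated and 1852, 2553 and 1334 CPM in untreated Foxp3-E2 skin, against 448, 506 and 178 CPM in irradiated and 463, 305 and 355 CPM in untreated Foxp3-WT skin. Untreated Foxp3-E2 skin was highest, with the other groups overlapping, and the interaction was -2.38 ± 0.49 (adjusted p = 0.00738). Ttn, the giant sarcomere protein titin, had -2.31 ± 0.67 (adjusted p = 0.0402), Tpm2, a tropomyosin, -1.93 ± 0.59 (adjusted p = 0.0483), and Car3, the carbonic anhydrase of muscle and fat, -2.13 ± 0.64 (adjusted p = 0.048). These 3 were, beside Krt14, the most abundant genes past the threshold. For Ttn its call was lost in 10 of the 12 fits that left out 1 library, all but those without untreated Foxp3-E2 replicate 1 or irradiated Foxp3-WT replicate 3 (adjusted p up to 0.111). For Tpm2 and Car3 the call was lost without the same 10 libraries (adjusted p up to 0.127 and 0.13), and Ttn, Tpm2 and Car3 did not pass with total counts and no composition factor.

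Some adipocyte and clock genes also fell. Of 17 adipocyte genes 3 fell (17.6%, against 4.84% of all genes) and 0 rose. The lower count ran from 3 without irradiated Foxp3-E2 replicate 1 to 5 without irradiated Foxp3-WT replicate 3. Those that fell were Pnpla2, the lipase of stored fat, at -1.79 ± 0.36 (adjusted p = 0.00626), Lpl, lipoprotein lipase, at -1.70 ± 0.37 (adjusted p = 0.00968), and Cd36, a fatty acid transporter, at -1.68 ± 0.37 (adjusted p = 0.0109). Pnpla2 was at 141, 141 and 109 CPM in irradiated and 393, 389 and 555 CPM in untreated Foxp3-E2 skin, against 94.5, 174 and 106 CPM in irradiated and 115, 99.7 and 155 CPM in untreated Foxp3-WT skin, highest in untreated Foxp3-E2 skin. Of 18 circadian genes 5 fell (27.8%, against 4.84% of all genes) and 0 rose. The circadian count ran from 2 without irradiated Foxp3-E2 replicate 1 to 7 without untreated Foxp3-E2 replicate 1. Tef (ENSMUSG00000022389, chromosome 15, 81802421 to 81826863, plus strand), an output factor of the clock, was at 78.6, 79.4 and 105 CPM in irradiated and 255, 276 and 261 CPM in untreated Foxp3-E2 skin, against 108, 122 and 83.9 CPM in irradiated and 124, 82.5 and 123 CPM in untreated Foxp3-WT skin. The 3 untreated Foxp3-E2 libraries were the highest, and the interaction was -1.52 ± 0.29 (adjusted p = 0.00509). Dbp, a related output factor, had -1.89 ± 0.39 (adjusted p = 0.00766). Per1, Per2 and Clock, of the core loop, did not pass, at -0.27 ± 0.43, 0.05 ± 1.18 and -0.30 ± 0.35. The sources used here do not give the time of day of sampling. The 3 adipocyte and 5 clock calls were all lost with the muscle share as a covariate, and the part of muscle in them was not tested.

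Outside the lists, the highest interactions of genes above the low-expression limit (mean log2 CPM 1) included Uox, Sptssb and Dlx4, with 0 counts in untreated Foxp3-E2 skin. Uox, urate oxidase, was at 45.97, 54.2 and 30.98 CPM in irradiated and 0, 0 and 0 CPM in untreated Foxp3-E2 skin, against 18.1, 12.3 and 10.3 CPM in irradiated and 5.01, 12.8 and 9.59 CPM in untreated Foxp3-WT skin. It was at least 169.7-fold higher in irradiated than in untreated Foxp3-E2 skin, with an interaction of at least 6.82 (adjusted p = 8.73e-05). Sptssb, a subunit of the enzyme that starts sphingolipid synthesis, and Dlx4, a homeobox factor, had interactions of at least 5.84 and 5.68 (adjusted p = 0.00011 and 0.000354). Prss35, a gene of the serine protease family, had 1 count in untreated Foxp3-E2 skin and a ratio of irradiated to untreated Foxp3-E2 of 309.9 (exact 95% interval of the counts 55.2 to 12280.0), with adjusted p = 0.00326 for the interaction.

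At the other end, Dab1, an adaptor of reelin signalling, was at 0.272, 0.242 and 0 CPM in irradiated and 47.3, 24.1 and 20.3 CPM in untreated Foxp3-E2 skin, against 2.74, 6.89 and 2.13 CPM in irradiated and 10.2, 10.5 and 12.1 CPM in untreated Foxp3-WT skin. Untreated Foxp3-E2 libraries were the highest. Irradiated Foxp3-E2 skin held 2 counts in all, a ratio to untreated Foxp3-E2 of 0.00605 (exact 95% interval of the counts 0.00073 to 0.022), with adjusted p = 0.0016 for the interaction. Ppp2r2c, a regulatory subunit of protein phosphatase 2A, held 1 count there, a ratio of 0.00592 (exact 95% interval of the counts 0.000149 to 0.0334) (adjusted p = 0.00513). Wfdc3, of the WAP domain family of protease inhibitors, was at 1.09, 0.484 and 1.09 CPM in irradiated and 17.8, 17.3 and 15.6 CPM in untreated Foxp3-E2 skin, against 4.66, 10.3 and 8.21 CPM in irradiated and 8.27, 4.43 and 5.84 CPM in untreated Foxp3-WT skin. It was lowest in irradiated and highest in untreated Foxp3-E2 skin, with -4.55 ± 0.74 (adjusted p = 0.00144). Tmem117, a transmembrane protein gene, had -4.62 ± 1.02 (adjusted p = 0.0109).

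Of the remaining lists, Elovl3, a fatty acid elongase of sebaceous gland and follicle, was the only 1 of 11 sebaceous genes to pass, at 3.53 ± 0.58 (adjusted p = 0.00166). In edgeR 0 passed of 16 endothelial, 10 Schwann cell, 6 haemoglobin, 5 B cell and 15 complement genes. At an unadjusted p under 0.05 these lists held 0, 0, 0, 0 and 1 genes, against 4018 of all 15126 genes. In each list 0 passed by voom and by DESeq2.

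**Figure D5:**
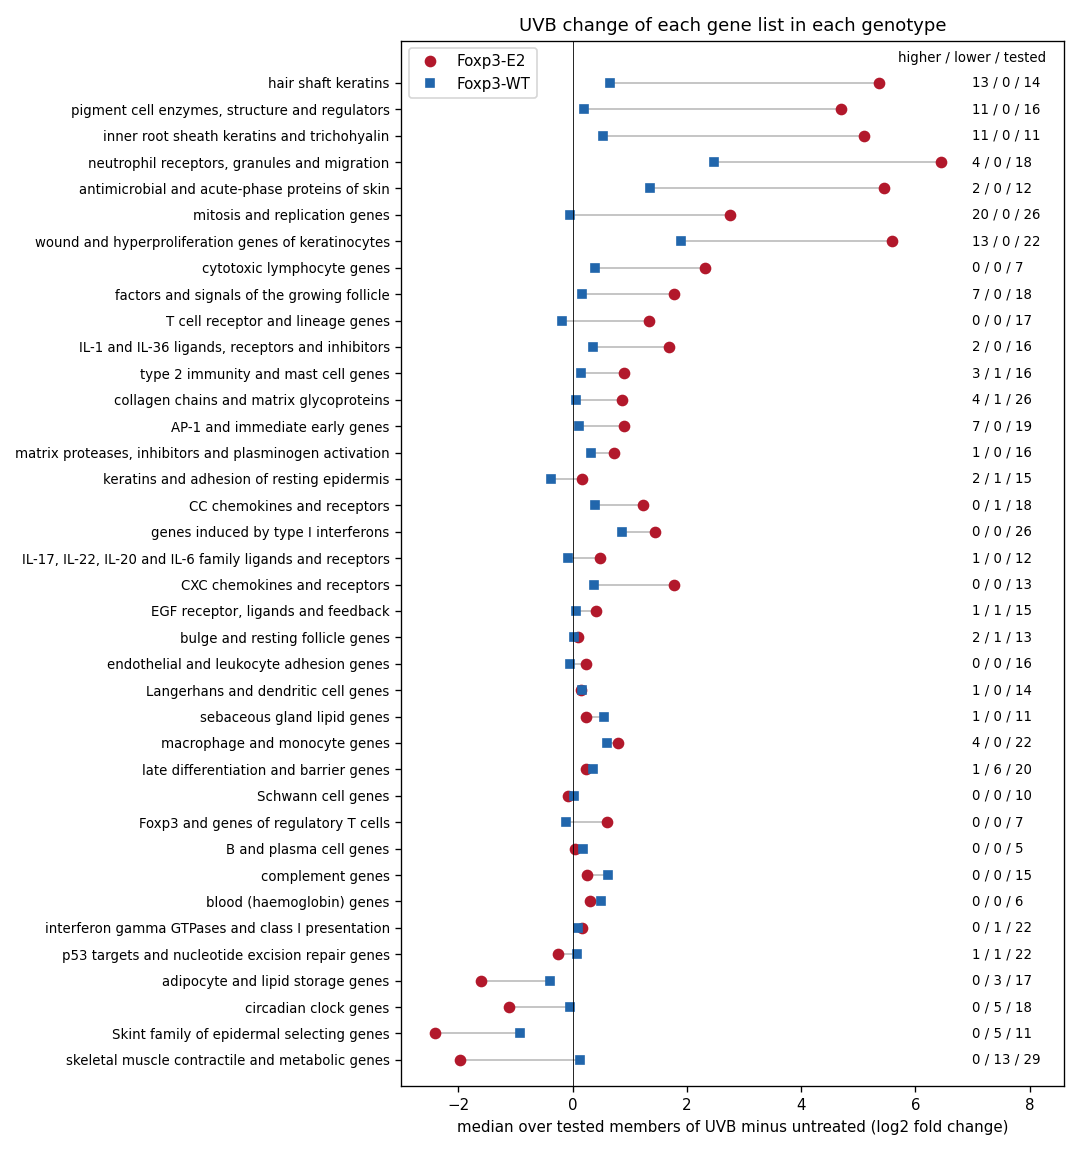
Median UVB minus untreated log2 fold change over the tested members of each of 38 gene lists, in Foxp3-E2 (red circles) and Foxp3-WT (blue squares), with the numbers of members whose interaction was higher, lower and tested. Neutrophil genes have the highest median in Foxp3-E2, at 6.44 against 2.47 in Foxp3-WT, and Skint genes the lowest, at -2.42 against -0.93. Of the 18 tested neutrophil genes, 8 had 0 counts in a group.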

How the data were processed

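Whole skin RNA was sequenced in 12 libraries, 3 per group, with total counts of 2809142 to 4741726. Whole-number counts per gene were deposited by the authors; per the submitters' processing notes Trimmomatic 0.39, Picard 3.1.0, SAMtools 1.16 and HTSeq 2.0.2 were used with GRCm38. The sources used here name no aligner, annotation release or strand setting, so reads of overlapping and antisense genes may not be told apart. Symbols and coordinates came from GENCODE vM21 (53360 of 53465 identifiers had a symbol).

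The counts were fitted with edgeR 4.0.16 (R 4.3.3): TMM scaling, filterByExpr, robust quasi-likelihood, 1 mean per group, 8 residual degrees of freedom, and Benjamini-Hochberg adjustment over 15126 genes at 0.05. The biological coefficient of variation was 35.8%. Errors (±) of log2 values are standard errors worked back from the test. CPM are counts per 1000000 of the TMM-scaled library size. Intervals and floors (3 counts over a group) cover counting error only. Interactions given as at least a value set only the group at 0 to the floor and take the other groups as counted. No replicate pair agreed within sampling noise. Alternatives used DESeq2 1.42.0, limma 3.58.1 voom, other scalings, filters and covariates, and each library left out.

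Members and gene lists were chosen with earlier results of these data known, and Ccl19, Il36rn, Krt85 and Stfa3l1 matched no symbol. List counts hold tested members only. Those not tested included 5 of 22 T cell and 6 of 11 B cell genes. Named genes were drawn from the 12 highest and 12 lowest interactions past the threshold, at mean log2 CPM 1 or above, up to 4 members of each list by smallest p, the 4 most abundant genes past it, and Foxp3. A gene of the rule is not reported here. No gene had UVB changes past the threshold in opposite directions in both genotypes. Other named genes, among them Il1b, Mitf, Sox10, Kit, Krt5, Krt1, Krt10, S100a8, S100a9, Shh, Mki67, Skint1, Flg, Fos, Cdkn1a, Mdm2, Mc1r, Tyrp1, Col1a1, Col3a1, Per1, Per2, Clock and the mast cell proteases, were chosen after their values were seen.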

Additional observations from a re-analysis of the deposited data

Results flagged for a closer look

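The test of the interaction itself showed that the UVB change differed between the genotypes in 1585 of 15126 genes, 853 (5.64%) higher and 732 (4.84%) lower in Foxp3-E2. The higher genes held 20 of 26 cell division genes, 13 of 22 of wounded keratinocytes, 13 of 14 shaft keratins, 11 of 11 of the inner root sheath, 11 of 16 of melanocytes, 7 of 18 of the follicle matrix and 7 of 19 immediate early genes. They also held 4 of 18 neutrophil, 4 of 22 macrophage, 4 of 26 matrix and 3 of 16 type 2 and mast cell genes, and 2 each of 13 follicle stem cell, 15 basal, 12 antimicrobial and 16 IL-1 genes. The lower genes held 13 of 29 of skeletal muscle, 6 of 20 of the barrier, 5 of 18 of the clock, 5 of 11 of the Skint family and 3 of 17 of adipocytes.

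Lists with 1 gene past the threshold in a direction gave shares near those of all genes and are no result about the list. For higher genes they were the barrier (5.0%), IL-17 (8.33%), dendritic (7.14%), protease (6.25%), sebaceous (9.09%), p53 (4.55%) and EGF receptor (6.67%) lists. For lower genes they were the follicle stem cell (7.69%), basal (6.67%), CC chemokine (5.56%), interferon gamma (4.55%), type 2 and mast cell (6.25%), matrix (3.85%), p53 (4.55%) and EGF receptor (6.67%) lists.

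Foxp3 lay outside the tested genes, below the filter on low counts. It had 8 counts over the irradiated Foxp3-E2 libraries, 7 of them in replicate 2, and 0 in the other groups.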

How the results depend on the processing

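No paired analysis was possible because no label ties libraries to an animal, and the fits hold no replicate block. The count of 1585 genes past the threshold ran from 878 without untreated Foxp3-WT replicate 2 to 2585 without untreated Foxp3-E2 replicate 1. Higher genes ran from 623 without untreated Foxp3-E2 replicate 3 to 1285, and lower genes from 216 to 1300, without the same libraries as the total. The share with the larger genotype difference at the untreated site stayed between 81.0% and 85.8%. With no filter 2438 passed, 1268 lower (share 81.1%). The lower count was 368 with no composition factor, 450 with voom and 1106 with DESeq2 (share 81.6%). With the muscle share as a covariate 335 passed (300 higher, 35 lower), with the hair share 0 passed (0 higher, 0 lower), and against a 1.5-fold change 779 passed (536 higher, 243 lower). The causes were not tested.

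Log2 interactions that changed sign with the hair share as a covariate were Nkg7 -0.0268, Lpl 0.27, Eno3 0.61, Ttn 1.02, Tpm2 0.57, Car3 0.86, Dbp 0.28, Egr3 -0.36, Ccng1 0.52, Mitf -1.73, Kit -2.92, Cdkn1a -0.35, Mdm2 0.50, Cma1 -3.71, Col1a1 -0.19, Col3a1 -0.18, Mcpt4 -2.78, Per1 0.27 and Tpsb2 -2.97. With the muscle share they were Mitf -0.0401, Kit -0.69, Cma1 -0.36 and Mcpt4 -0.17. With no composition factor they were Clock 0.0279 and Per1 0.0724, and with voom Per2 -0.28. Without both untreated Foxp3-E2 replicate 1 and irradiated Foxp3-WT replicate 2, Sox10 was -0.25 and Per2 -0.58. With 1 library left out, genes past no threshold ranged over 0: Mitf -0.28 to 0.49, Sox10 -0.31 to 0.46, Kit -0.23 to 0.68, Fos -0.0936 to 1.24, Cma1 -0.20 to 1.159, Mcpt4 -0.0536 to 1.19, Per1 -0.36 to 0.0217 and Per2 -1.71 to 0.59.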
